A study of Mus musculus with 2 samples.

Results

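Mir21a, the mouse gene of the microRNA (miRNA) miR-21, was followed in adrenal gland tissue of B6CASTF1/J females at an age of 36 days. It was taken as the entry that GENCODE M21 names Mir21a, 1 gene of the 2202 in the count tables. MicroRNA-seq, which sequences RNAs about as short as mature miRNAs, had been run on 1 group of 2 libraries from this cross, the first generation between common laboratory mice and a wild-derived strain. The labels call the libraries biological replicates 1 and 2 and number their females separately. A single donor identifier stands on both, however, so SDs, and the p-values that use a spread between the libraries, measure the spread between these samples, which may be technical. With no second tissue, sex, age or treatment, the comparisons open to Mir21a were with other miRNA genes of the gland and between the 2 libraries.

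A miRNA is cut from a hairpin in a longer transcript, and 1 or both arms of the hairpin become the short mature strand that guides Argonaute proteins to messenger RNAs. The choice of target rests mainly on the seed, bases 2 to 8 of the mature strand. miR-21 is known as a miRNA of growth, injury and fibrosis, and the messages of the growth inhibitors Pdcd4 and Spry1 are among its reported targets. In adrenocortical cells in culture it was reported to rise with angiotensin II and to raise aldosterone secretion and proliferation.

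The mature strands of the miR-21 genes show which reads can be told apart. They are from the RefSeq table for GRCm38.p6, the assembly that mm10 names, with the seed in capitals, 5′ to 3′.
miR-21a-5p: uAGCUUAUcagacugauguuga
miR-21a-3p: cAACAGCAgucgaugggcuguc
miR-21b: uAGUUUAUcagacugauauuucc
miR-21c: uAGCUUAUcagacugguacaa
The 5p strand of Mir21a and miR-21c shared the seed AGCUUAU, and these were the only 2 of 1738 mature strands in the table that held it. Mir590, also listed for this seed, was not among them, so the table may not hold every strand with the seed. miR-21b lay outside the seed group, because C4U (position 4 counted from 1 at the 5′ end, base of miR-21a-5p first) falls inside the seed. The seed of the 3p strand, AACAGCA, was held by no other strand in the table. Along its 5p strand Mir21a matched miR-21c for an unbroken 15 bases, up to A16G, and miR-21b for at most 13. Among the other 2201 annotated hairpins, read on both strands, none shared 20 bases with the Mir21a hairpin, and the longest run was the 15 bases of Mir21c. Both whole mature strands of Mir21a occurred in annotated transcripts of Mir21a and of its host gene Vmp1 and in no other of 141767 transcripts searched. The count tables give 1 value per hairpin, so reads of the 5p and the 3p strand could not be separated.

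The Mir21a hairpin (chromosome 11, 86584067 to 86584158, minus strand, mm10) is 92 bases long and lies within Vmp1 on the same strand. Vmp1, which encodes a membrane protein of the endoplasmic reticulum needed for autophagy, spans 86583865 to 86683836. The hairpin fell in exon 12 of 12 of its longest transcript (86583865 to 86585451), inside its 3′ UTR (86583865 to 86585310), 202 bases before the annotated end of the gene. The other 7 of the 8 annotated Vmp1 transcripts do not contain it. Only miRNA genes were counted in these tables, so the level of Vmp1 itself was not analysed here.

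Replicate 1 held 13973580 reads and 5397603 sense counts of miRNA genes, and replicate 2 held 7530945 and 3029977. Mir21a had 102248 sense counts in replicate 1 and 104837 in replicate 2. The shallower library thus gave slightly more Mir21a reads than the deeper one, by 1.03 times, although its total of sense counts was smaller by 1.78 times. As normalised read counts (CPM, here the sense count over the library's sum of sense miRNA counts, times 1000000) the level was 18943 (95% Wilson interval 18829 to 19059) in replicate 1 and 34600 (34395 to 34806) in replicate 2. Mir21a was lower in replicate 1 than in replicate 2, and the 2 intervals, which cover counting error only, did not overlap. The mean was 26772 ± 11071 CPM (SD, n = 2), or 2.68% ± 1.11 of the sense miRNA counts. Set against all reads of the library, mapped or not, Mir21a took 0.732% in replicate 1 and 1.39% in replicate 2. PCR duplicates could not be told from separate molecules.

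The level rested on reads of 1 strand. On the antisense strand Mir21a had 1 count in replicate 1, or 0.000978% of the counts on both strands (95% Wilson interval 0.000173 to 0.00554%). It had 0 in replicate 2, which allows a share of up to 0.00286%. Counted without strand the gene had 102249 and 104837 counts, so strand made almost no difference to its counts. The close copies held almost none of the reads. Mir21b (chromosome 3, 29636744 to 29636851, plus strand) had 1 count in replicate 1 and 0 in replicate 2. Mir21c (chromosome 8, 128278148 to 128278225, minus strand), which shares the seed, had 0 in both. For these the limits are 0.556 CPM in replicate 1 and 0.990 in replicate 2. Taking 3 counts in place of each 0, Mir21a was at least 34082-fold higher than Mir21c in replicate 1 and at least 34945-fold higher in replicate 2. Reads that mapped to several places, 28.5% and 30.6% of all reads, belong to no gene's count, and whether any came from the miR-21 genes was not tested. Mir590, the fourth gene listed for the seed, had no entry of that name in the annotation and was not analysed here.

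By reads assigned to 1 gene, Mir21a was among the most abundant miRNA genes of the gland. It had rank 11 by mean CPM, 14 in replicate 1 and 11 in replicate 2. Reads mapped to several places are missing from these counts. Genes that share a mature strand with another gene may therefore rank too low. The level of Mir21a was 128 times the median of the 339 genes detected (10 or more counts in each library) in replicate 1 and 359 times that median in replicate 2. Mature miRNAs are of nearly equal length, so levels were compared between genes without scaling to length. The number of reads that each molecule gives may still differ between genes and was not measured. Levels and ranks are therefore shares of reads, not of molecules. Just above it by mean level stood Mir23a (40550 ± 10914 CPM) and Mir23b (33302 ± 7832), 2 genes of the miR-23/27/24 clusters, and Mir26b (34226 ± 5672), which lies within Ctdsp1. Just below it stood Mir22 (26649 ± 22145), Mir375 (25584 ± 4721), which is known from endocrine cells, and Mir10b (24606 ± 12204) of a Hox cluster. Of the other 49 genes among the 50 highest, 10 were above Mir21a in both libraries and 36 were below it in both. The remaining 3 changed sides, each above it in replicate 1 and below it in replicate 2. These were Mir22, Mir375 and Mir139, of which Mir139 was named after its values were seen. Mir22 moved most, from 42308 CPM in replicate 1, far over Mir21a, to 10990 in replicate 2, far under it.

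**Figure D1:**
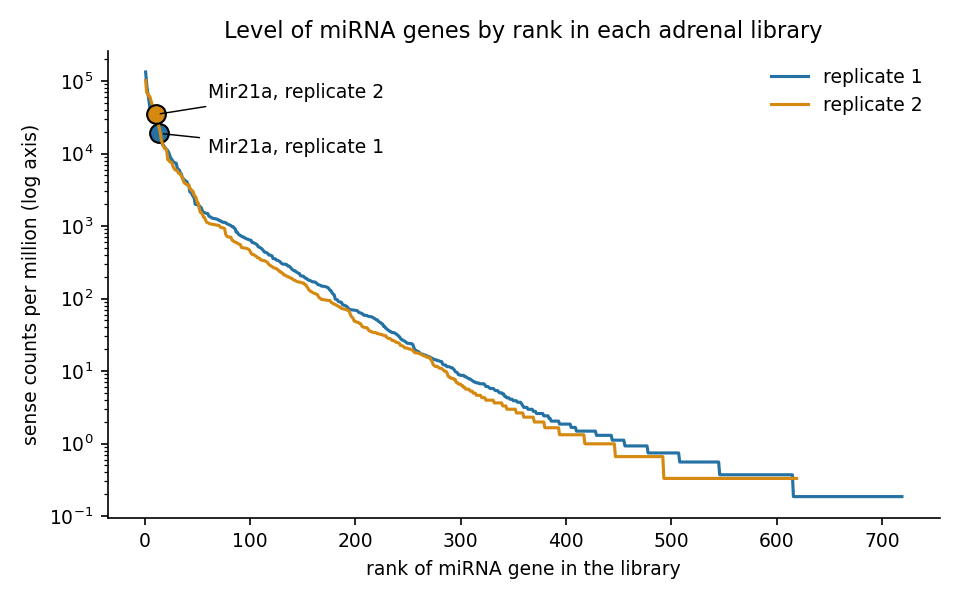
Level of every miRNA gene with at least 1 count (vertical, sense counts as CPM, log axis) against its rank in the library (horizontal), 1 line per library. The circles mark Mir21a at rank 14 with 18943 CPM in replicate 1 and rank 11 with 34600 CPM in replicate 2, on the steep left end of both lines.

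The spread between the libraries limits this order. The pooled coefficient of variation over all tested genes (edgeR's common dispersion) was 41.6% with TMM scaling, which sets the bulk of genes equal between libraries. On the same scaling that of Mir21a was 54.4%, and on unscaled CPM it was 41.4%. If each gene had the pooled spread, 2 genes would have to differ by more than 2.26-fold in geometric mean to be ordered. By that limit 4 of the 49 genes were above Mir21a, 29 were below it and 16 were not ordered against it. The 4 above were the first 4 by mean, Mir126a, Mirlet7g, Mirlet7b and Mir378a. The 16 that could not be ordered ran from Mir10a at 2.02 times the geometric mean of Mir21a down to 0.447 times. Mir23b (1.28 times), Mir22 (0.842), Mir375 (0.991) and Mir10b (0.900), its nearest neighbours by rank, were all within it.

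**Figure D2:**
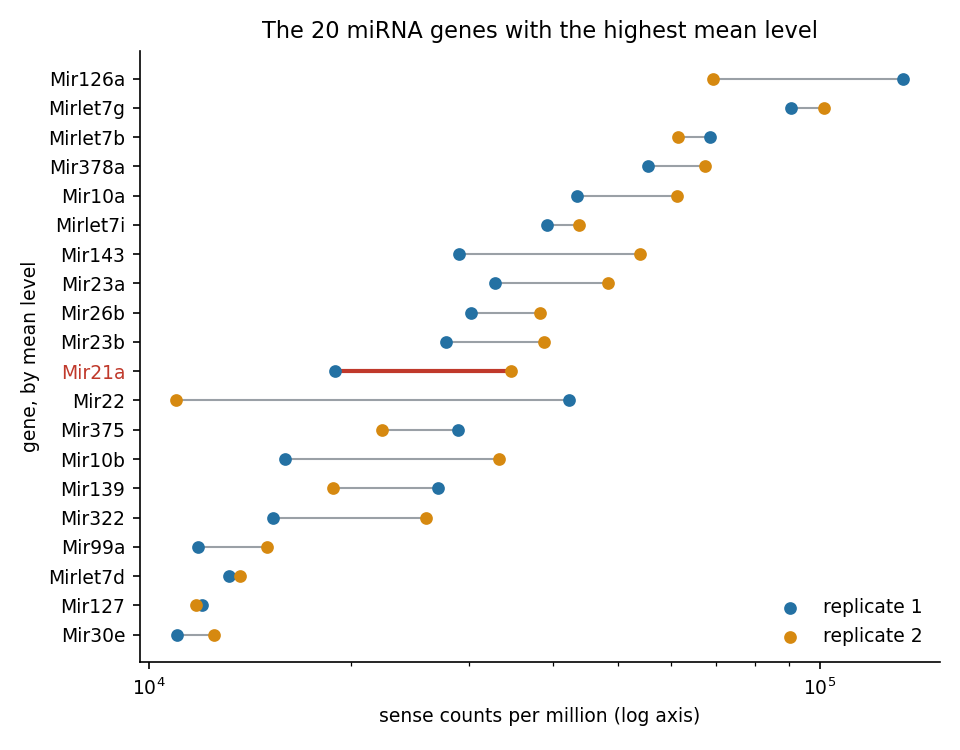
Sense counts as CPM (horizontal, log axis) of the 20 genes with the highest mean level, 1 point per library and a line joining the 2 libraries of each gene, Mir21a in red. The line of Mir21a runs from 18943 in replicate 1 to 34600 in replicate 2, and those of Mir22, Mir375 and Mir139 overlap its range and run in the opposite direction.

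The comparison between the 2 libraries asked how reproducible the level of Mir21a was. In CPM it was 1.83-fold higher in replicate 2. With TMM scaling it was 2.25-fold higher (log2 ratio of replicate 2 over replicate 1 1.17, 95% interval of the fold 2.23 to 2.27 for counting error). An exact two-sided binomial test against counting error called the difference, with a Benjamini-Hochberg adjusted p below the smallest value the computation can represent. The same test called 58.5% of the 434 genes tested, 28.3% towards replicate 2 and 30.2% towards replicate 1 as shares of all tested genes, so such a call was common. TMM called 123 genes towards replicate 2 and 131 towards replicate 1, and total sense counts in its place called 83 and 189. They shifted every log2 ratio by -0.30. A ratio of at least 2-fold towards replicate 2, which Mir21a had with TMM, was seen in 10.4% of tested genes.

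Set against the spread of all genes in place of counting error, the difference of Mir21a did not pass. The edgeR exact test with the common dispersion gave p = 0.182 and adjusted p = 0.999, and dispersions from DESeq2 gave p = 0.184 with an adjusted p of 1. With the pooled spread alone, 95% of ratios between 2 libraries would lie within 3.16-fold, and the 2.25-fold of Mir21a was inside that. No gene of the 434 was called by either fit, while 24 had an unadjusted p under 0.05 with the common dispersion and 9 with the DESeq2 dispersions. Both spreads were estimated from the same 2 libraries with no second group. They therefore hold the difference under test, which leaves little room for a call. Among the 50 most abundant genes, 10 had a larger ratio than Mir21a in either direction, and the median size was 1.39-fold. With its sign, the median log2 ratio of these 50 genes was 0.35 towards replicate 2, beside -0.06 over all tested genes. Over all tested genes, low ones included, 20.7% had a larger ratio.

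**Figure D3:**
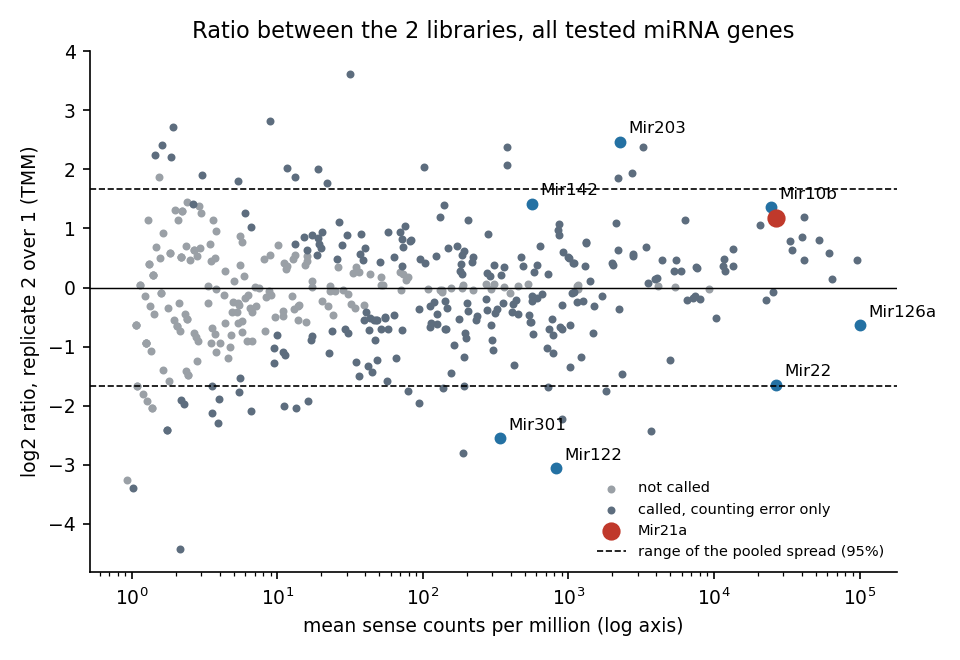
Log2 ratio of replicate 2 over replicate 1 with TMM (vertical) against mean CPM (horizontal, log axis) for the 434 tested genes, with 7 other named genes in blue. Mir21a (red, 1.17) lies above 0 at the right of the plot and inside the dashed lines at 3.16-fold that mark the pooled spread.

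The size of the difference moved with the scaling, but its direction did not. Over 12 other settings the log2 ratio of Mir21a ran from 0.77, with library sizes that leave out Mir126a, to 1.24 with DESeq2 size factors, or from 1.70-fold to 2.37-fold. Among these settings, the edgeR and DESeq2 dispersions changed only the test and left the log2 ratio of Mir21a at 1.17. With total sense counts that ratio was 0.87 and with all reads of the library 0.93. Thinning replicate 1 to the total sense counts of replicate 2 gave 1.15. The 2-fold mark was therefore passed or missed by the choice of scaling.

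**Figure D4:**
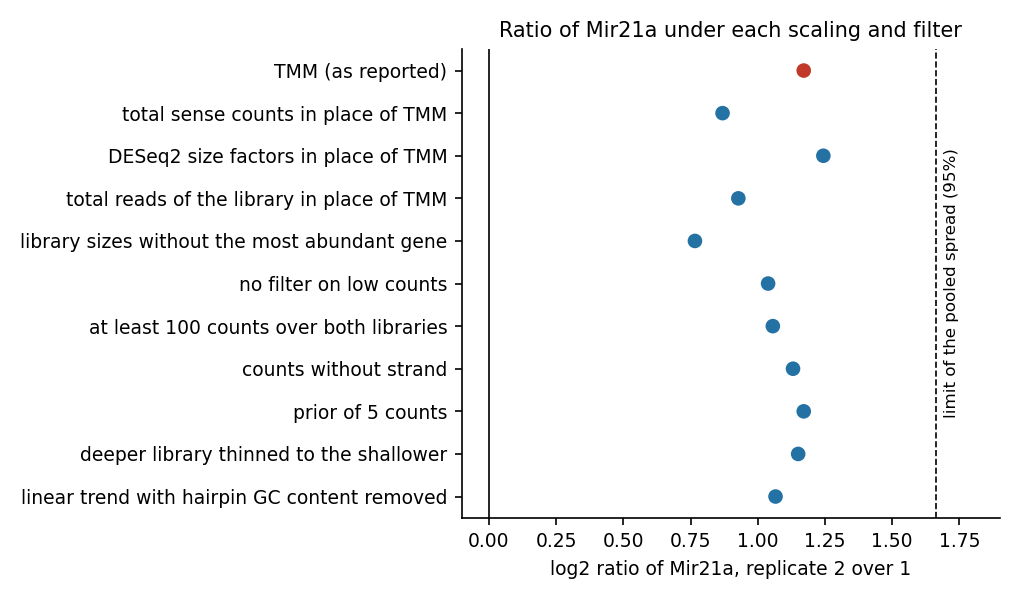
Log2 ratio of Mir21a, replicate 2 over replicate 1 (horizontal), for TMM (red) and for the other scalings, filters and corrections (blue, 1 row each). All points lie between 0.77 and 1.24, right of the solid line at 0 and left of the dashed limit of the pooled spread.

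The ratios of all genes followed the GC content of their hairpins, falling as GC rose. Spearman's rho was -0.35 over 284 genes that had 100 or more counts in sum, all measured in the same 2 libraries. The Mir21a hairpin had 45.7% GC, under the median of those genes. The 5p strand had 36.4% and the 3p strand 59.1%. Of 112 genes within 5 percentage points of the Mir21a hairpin, 67 were higher in replicate 2, with a median log2 ratio of 0.21 and a range from -3.06 to 2.47, and 7 of them had a higher ratio than Mir21a. The linear trend put 0.10 on Mir21a, and without it the log2 ratio was 1.07.

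Of the 50 most abundant genes, those with the ratio nearest to Mir21a were Mir143, Mir335 and Mir322. The likeness is the difference of TMM log2 ratios over only 2 libraries, so many genes come close. Mir143, known from smooth muscle, had a log2 ratio of 1.20, with 28989 CPM in replicate 1 and 53980 in replicate 2. Mir335, in the imprinted gene Mest, had 1.14, with 4521 and 8095 CPM. Mir322, of an X-linked cluster, had 1.06, with 15323 and 25855 CPM. The rule chose these genes by their ratio, so sharing the direction of Mir21a is no finding.

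The nearest miRNA genes on chromosome 11 gave no common pattern with Mir21a. On the side of lower coordinates Mir5110, Gm23564 and Gm27598, at distances from 823 to 3551 kb, had 0 counts in both libraries. On the other side Mir301 (87113004 to 87113089, plus strand, in Ska2), 529 kb away, had 591 CPM in replicate 1 and 81.5 in replicate 2. It was 5.87-fold higher in replicate 1, the opposite direction to Mir21a. Mir142 (87756864 to 87756927, plus strand), a gene of blood cells 1173 kb away, had 356 and 772 CPM and was 2.68-fold higher in replicate 2. Mir142b, on the other strand at Mir142, had 0 counts in both. All of these were far under Mir21a, whose mean was 79.6 times that of Mir301 and 47.5 times that of Mir142.

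Other miRNAs reported in the control of adrenocortical steroid output all had lower counts than Mir21a among reads assigned to 1 gene. All 13 listed genes were detected, and none had a higher mean. Together they held 15378 CPM in replicate 1 and 7239 in replicate 2, under Mir21a alone in each library. Mir125a, reported to act on the high-density lipoprotein receptor that brings cholesterol into the cell, led with 4994 ± 3417 CPM. Mir320 followed with 2237 ± 709 and Mir455, reported to act on the same receptor, with 1151 ± 306. Mir24-1 (43.5 ± 17.1 CPM) and Mir24-2 (194 ± 97.7), reported to act on the enzymes of the last steps of cortisol and aldosterone synthesis, have the same mature strand, as do Mir125b-1 (202 ± 54.7) and Mir125b-2 (192 ± 29.4) on the 5p side. Reads mapped to several places may be missing from all 4, so their levels relative to Mir21a are uncertain. Mir132 (560 ± 122), Mir182 (606 ± 144) and Mir212 (33.3 ± 0.870) were among those reported after the pituitary hormone ACTH.

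Between the libraries most of this list was called in the other direction from Mir21a. Against counting error 9 of the 13 were higher in replicate 1, 1 (Mir125b-2) was higher in replicate 2, and Mir183, Mir212 and Mir96 were not called. Over all tested genes 30.2% were called towards replicate 1 and 28.3% towards replicate 2. The list's median log2 ratio was -0.25, beside -0.06 over all tested genes. DESeq2 size factors gave 8 towards replicate 1 and 1 towards replicate 2, where 119 and 137 of all 434 genes were called. Total sense counts gave 10 and 1, beside 189 and 83 of all genes. Removal of the GC trend gave 6 and 3, where 136 of 254 calls over all genes were towards replicate 2. With the edgeR common dispersion none of the 13 was called. Mir125a had 7410 CPM in replicate 1 and 2579 in replicate 2, so Mir21a stood 2.56 times above it in the first and 13.4 times above it in the second.

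Of the 12 genes listed for fibrosis and injury, 11 were detected. Among reads assigned to 1 gene, again none reached the mean of Mir21a. Mir199a-1 had 0 counts in both libraries, and it shares its mature strand with Mir199a-2. Reads mapped to several places may be missing from listed genes that share a mature strand, so their levels relative to Mir21a are uncertain. Mir29a, of a family that targets collagen messages, led with 7119 ± 1679 CPM, ahead of Mir146 (1400 ± 130), an inflammation-linked gene, Mir29c (1258 ± 323), Mir214 (896 ± 894) and Mir34a (766 ± 303), a target gene of p53. Of the 11, 7 were higher in replicate 1 against counting error, Mir146, Mir155 and Mir199b were higher in replicate 2, and Mir199a-2 was not called, where 30.2% and 28.3% of all tested genes were called in those directions. The median log2 ratio was -0.53, beside -0.06 over all tested genes. With total sense counts 8 were higher in replicate 1 and 1 in replicate 2, beside 189 and 83 of all 434 tested genes. With library sizes that leave out Mir126a it was 9 and 0, where 68 of 280 calls over all genes were towards replicate 2. In Mir146 the direction turned with total sense counts (-0.19). Mir214 is on both this list and the previous one.

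The gland is a mixture of cell types, and which of them expressed Mir21a was not measured here. In bulk tissue a change in the number of cells of a type and a change in RNA per cell cannot be told apart. Endocrine and neuroendocrine genes were present (4 of 4 detected, 31668 CPM in replicate 1 and 25395 in replicate 2). The tables hold only miRNAs, so the steroid-producing enzymes that define the cortex were not analysed here. Genes of other cell types moved between the same 2 libraries, and their part in the difference of Mir21a was not tested.

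With TMM, the white-cell list and most of the smooth muscle and fibroblast list went towards replicate 2, the direction of Mir21a. White-cell genes, 6 of 6 detected, summed to 3420 CPM in replicate 1 and 3925 in replicate 2, and 6 were higher in replicate 2 with TMM, where 28.3% of all tested genes were. With total sense counts 3 were, where 83 of all 434 were, and Mir146 turned to replicate 1. Smooth muscle and fibroblast genes, 5 of 6 detected with Mir199a-1 at 0, summed to 31789 and 59526 CPM, with 3 higher in replicate 2 and Mir214 higher in replicate 1. Most of that sum was Mir143. Total sense counts also gave 3 higher in replicate 2 and 1 higher in replicate 1 for this list. Library sizes that leave out Mir126a gave 2 and 2, and for the white-cell list 3 and 2. Over all genes, 68 of 280 calls were then towards replicate 2. Epithelial genes, 4 of 7 detected, summed to 873 and 3729 CPM, nearly all of it Mir203 (822 and 3691 CPM). Of the 6 tested, Mir203 and Mir141 were higher in replicate 2, Mir200b was higher in replicate 1 and 3 were not called. Mir205 had too few counts to be tested. Endothelial genes, 2 of 2 detected, summed to 133214 and 69289 CPM, nearly all of it Mir126a, which was higher in replicate 1. Mir126b was not called. The 3 red-cell genes, all higher in replicate 1, summed to 1210 and 576 CPM, and the hepatocyte gene Mir122 had 1503 and 146 CPM. The share of all tested genes called towards replicate 1 with TMM, for every list here, was 30.2%. In the endocrine list Mir7b was higher in replicate 2, Mir375 was higher in replicate 1 with TMM but not called with DESeq2 size factors, and 2 genes were not called. The summed CPM of each list differed between the libraries, in one direction or the other.

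**Figure D5:**
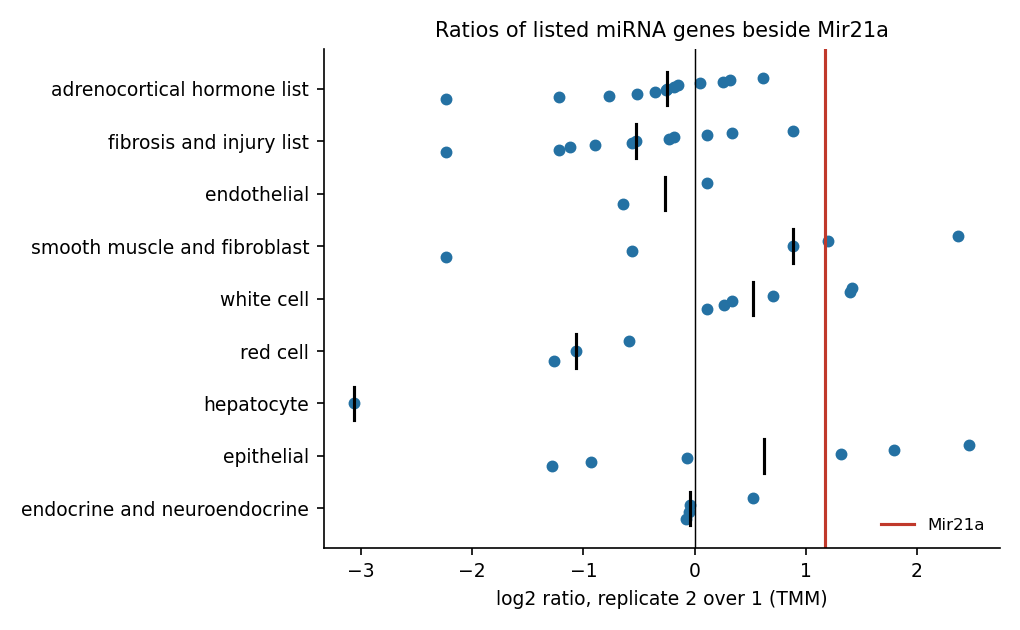
Log2 ratio of replicate 2 over replicate 1 with TMM (horizontal) for each tested gene of 9 lists (1 point per gene, black bar at the list's median), with Mir21a as the red line at 1.17. All tested genes of the adrenocortical and the fibrosis lists lie left of the line, as do all red-cell genes, while Mir143, Mir142 and Mir203 lie right of it.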

How the data were processed

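Raw read counts per miRNA gene were deposited by the authors, 1 table per library with 3 count columns and 4 summary entries. Per the authors' notes the assembly was mm10 and the annotation GENCODE M21. Aligner, counter and adapter trimming were not given in the sources used here. The columns carry no header and were read as unstranded, sense and antisense counts, because each sums with its summary entries to the same total. The stranded column with nearly all reads was taken as sense, so a low antisense share follows from that choice. Summary entries stayed out of library sizes and tests. In replicates 1 and 2 unmapped reads were 26.0% and 22.3%, multiply mapped reads 28.5% and 30.6%, and reads outside miRNA genes 6.88% and 6.86%. All 2202 identifiers matched.

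CPM used the total of sense counts. Ratios were scaled by TMM (edgeR 4.0.16, R 4.3.3) with a prior count of 0.5, for genes whose 2 sense counts summed to 10 or more. The test of each gene was binomial, exact and two-sided (scipy 1.17.1), adjusted by Benjamini-Hochberg (statsmodels 0.14.6) with a threshold of 0.05. It sets 1 library against the other, not conditions. The common dispersion of edgeR, fitted with an intercept alone, stood for the pooled spread, with DESeq2 1.42.0 dispersions as the alternative. A count of 0 was given an upper limit of 3 counts, and intervals are 95% Wilson intervals. At these depths 1 count was worth 0.185 CPM in replicate 1 and 0.330 in replicate 2.

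Named genes were Mir21a, the seed family, the 3 genes ranked on each side by mean CPM, the 3 of the top 50 with the nearest ratio and the 3 nearest miRNA genes on each side on the chromosome. Detected members of the adrenocortical and fibrosis lists and the most abundant gene of each cell type list were also named. The gene and the lists were chosen with earlier results of these data known. The removal of the GC trend was chosen after seeing the data. On simulated counts for 436 genes at these depths the binomial step found 83.3% of 2-fold changes and called 2.49% of unchanged genes. The simulated counts held counting error only and no spread between libraries. Their 2.49% is therefore no rate of false calls for the real libraries. Figures were drawn with matplotlib 3.10.9.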

Additional observations from a re-analysis of the deposited data

How the results depend on the processing

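Mir21a stayed higher in replicate 2 under each of the 12 other settings run. The edgeR common dispersion and the DESeq2 dispersions changed only the test, so with them the log2 ratio stayed at 1.17 by construction. With either of them in place of counting error the call of Mir21a was lost and the count of called genes fell to 0. Both were estimated from these same 2 libraries and so hold the difference under test, which left little room for a call. The mean level of Mir21a was 10619 for each 1000000 reads when all reads of the library were the denominator. Counted without strand, the mean level was 33053 CPM and the rank 10, with Mir126a at only 11 counts in replicate 1 and 3 in replicate 2. Leaving out 1 library gave a level from 18943 to 34600 CPM, a rank from 11 to 14 and an antisense share from 0 to 0.000978%. For the 38 other named genes with a ratio, 354 of 450 values under other settings kept direction and call, and 68 of the 75 lost calls came with a spread in place of counting error. The log2 ratios that turned lay between -0.36 (Mir320) and 0.34 (Mir155) with TMM. Not every gene in that range turned, as Mir29a (-0.18) kept its direction. Mir146 (0.11 with TMM) came to -0.19 with total sense counts, -0.13 with all reads, -0.29 without Mir126a, -0.020 with no filter, -0.0028 with at least 100 counts and -0.16 without the GC trend. Mir183 (0.05) came to -0.26, -0.20, -0.36, -0.086, -0.068 and -0.056 in that order. Mir212 came to -0.050 with total sense counts and -0.15 without Mir126a, where Mir155 came to -0.064 and Mir96 to -0.086. Without the GC trend Mir375 came to 0.45, Mir320 to 0.059 and Mir132 to 0.10. The scalings shift all genes together, by -0.40 without Mir126a, -0.24 with all reads, -0.13 with no filter and -0.11 with at least 100 counts. No paired analysis was possible because there is 1 group. With 2 libraries, no setting separates animal from preparation.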
